A study of Mus musculus with 3 samples.

Results

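The genes described here are 8 of the 31053 genes counted, namely the opioid receptor genes Oprm1, Oprd1, Oprk1 and Oprl1, the enkephalin precursor gene Penk, the cannabinoid receptor gene Cnr1, and the GABA-B receptor genes Gabbr1 and Gabbr2. They were chosen by name as inhibitory receptors of sensory neurons with 1 of their ligands and were matched exactly by symbol. The rule used no measured value, but earlier results of these data were known when the genes were proposed. Of the 8 genes, 6 were counted with 198 or more unique molecular identifiers (UMIs, each standing for 1 captured mRNA molecule) over all classed cells. Oprk1 had 59 and Oprd1 had 8, which limits what can be said of them.

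The products of the receptor genes are G protein-coupled receptors that act mainly through the Gi/o class of G proteins. In sensory neurons they close voltage-gated calcium channels, lower cyclic AMP and reduce transmitter release from the central terminals, which makes them targets of analgesic drugs. Oprm1, Oprd1 and Oprk1 encode the mu, delta and kappa opioid receptors, Oprl1 encodes the nociceptin receptor, Cnr1 encodes the CB1 receptor, and Penk encodes the precursor of the enkephalins. The GABA-B receptor is an obligate heterodimer in which the Gabbr1 product binds GABA and the Gabbr2 product couples to the G protein and brings the pair to the cell surface.

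Single cells were captured in droplets from L3 and L4 dorsal root ganglia (DRGs) in 1 library each of untreated (naïve) mice, of mice 7 days and of mice 14 days after a spared nerve injury. By the labels, the injury was double sided and all were male C57BL/6J mice of 13 weeks. The labels also state that each library pooled the 8 DRGs of 2 mice, and that ganglia of both sides were taken. Where the study describes its animals they are female and younger. Its results call the injury a partial sciatic nerve ligation, whereas its discussion names spared nerve injury for the single-cell data. The mice of a library cannot be separated, so no condition had a replicate, no p-value is given, and every interval is a 95% interval for counting error only.

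The libraries held 3748 (naïve), 3281 (7 days) and 4908 (14 days) barcodes with 22343246 to 36550911 UMIs, and shared 1 to 6 barcode sequences pairwise. After the filter, 3123, 2650 and 3799 cells remained. A cell was placed in the class of which it carried the highest share of marker genes, and 129, 199 and 145 cells were placed as neurons from 8 neuronal markers. All 8 of these markers were highest in neurons in each library. Of the satellite glia markers 4 of 5 were highest in their own class in each library. For non-myelinating Schwann cells it was 5, 4 and 4 of 6. The markers of all other classes were highest in their own class. The neurons of the 7-day library were shallower, with a median of 2281 UMIs against 63705 and 80010. Of its 199 neurons, 142 had under 10000 UMIs. Neurons of at least 10000 UMIs (108, 57 and 120) held 95.1% or more of all neuron UMIs in each library. Of the neurons, 7, 79 and 7 lay close to the limit of the marker rule, with 4 or 5 of the 8 markers.

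The genes lie apart on chromosomes 1, 2, 4, 10 and 17 of the mm10 (GRCm38) assembly, in the GENCODE vM21 annotation. Oprm1 spans chr10:6758506-7038198 on the plus strand, with 31 annotated transcripts that end at 25 positions. Oprd1 (chr4:132110726-132144486, minus strand), Penk (chr4:4133531-4138819, minus), Cnr1 (chr4:33924593-33948831, plus) and Gabbr2 (chr4:46662305-46991873, minus) share a chromosome. Oprk1 spans chr1:5588466-5606131, Oprl1 chr2:181715016-181720985 and Gabbr1 chr17:37045966-37075067, all on the plus strand. Reads were taken from the 3′ ends of transcripts, so transcripts of Oprm1 with different 3′ ends are summed here. Oprm1 overlaps Gm10945 and Ipcef1, and Penk overlaps A830012C17Rik, in each case on the other strand only.

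By share of UMIs, apart from Gabbr1 and, to a small extent, Penk, these genes were counted almost entirely in neurons. By level, Penk was higher in fibroblasts, as given below. Neurons held all 8 classed UMIs of Oprd1, 98.6% of those of Oprm1, 98.3% of Oprk1, 97.9% of Oprl1, 97.2% of Cnr1 and 98.2% of Gabbr2, but 84.3% of Penk and 75.6% of Gabbr1. At least 2-fold higher in neurons than in all other classes together were 6 of 6 members with at least 20 UMIs in the naïve library, 5 of 5 at 7 days and 7 of 7 at 14 days, against 21.7%, 20.6% and 21.8% of all genes. Among them only Gabbr1 and Gabbr2 had 20 UMIs outside neurons. The others could reach that minimum only with their neuron UMIs, which favoured a higher call, so the counts describe the members only. Under a stricter cell filter Penk at 14 days turned to a log2 ratio of −1.61. With that filter the neuron with the most Penk UMIs, 84, was placed in another class.

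The level of Oprm1 in neurons was 5.28 CPM (UMIs of the gene per 1000000 UMIs) in the naïve library, 7.00 CPM at 7 days and 9.22 CPM at 14 days. In all other classes it was counted 0, 0 and 3 times, so the neuronal level was at least 20.7-fold and 29.5-fold higher in the first of these libraries and at 7 days (against 3 UMIs over the group), and 56.6-fold higher at 14 days (18.9 to 279). Satellite glia, the cells that wrap the neuronal somata, gave 0 of 698, 0 of 481 and 0 of 683 cells with an Oprm1 UMI, which allows shares of up to 0.430%, 0.624% and 0.439%. The median depth of satellite glia was 5524, 7149 and 6990 UMIs. The share of neurons with a UMI was 21.7%, 8.54% and 39.3%, lowest in the library with the shallowest neurons. Thinned to 5000 UMIs per neuron, with 16, 130 and 17 shallower neurons left out, the share was 3.44%, 3.74% and 4.51%.

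**Figure D1:**
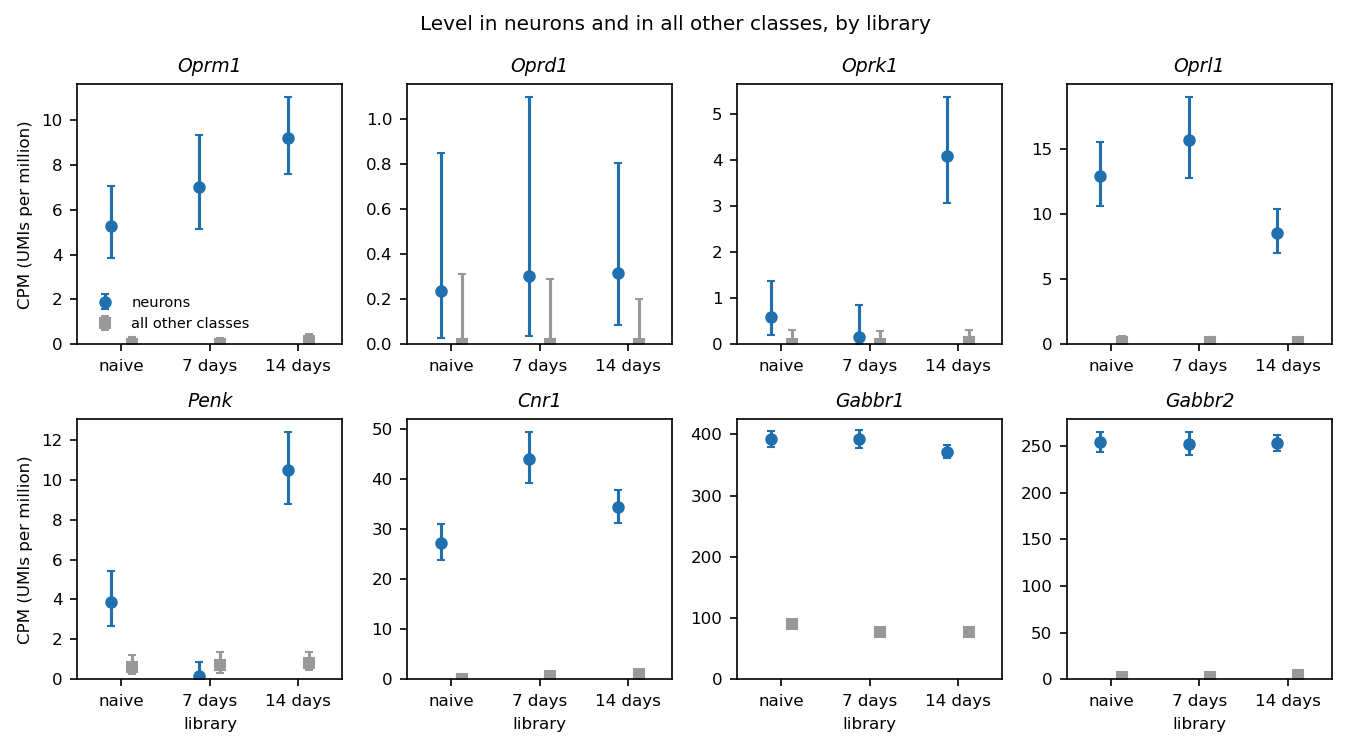
Level of each gene (CPM, linear axis from 0) in neurons (blue circles) and in all other classes together (grey squares), by library, with exact Poisson 95% intervals. All genes but Penk at 7 days sit higher in neurons, and the 2 GABA-B genes are level across libraries, at 372 to 393 CPM for Gabbr1 and 253 to 255 CPM for Gabbr2.

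Among neurons, the receptor genes differed in the types of neuron that carried them. Types were called from markers in the same way, but against the mean over the neurons of all 3 libraries together. They were Nefh (large myelinated neurons), Mrgprd and Tac1 (non-peptidergic and peptidergic nociceptors), C-LTMR (low-threshold C fibres marked by Th and Slc17a8) and Sst (itch neurons marked by Nppb and Il31ra). A last group of 13 cells was gated on Cdh8 and Foxp2, with Trpm8 itself in 4 of them, and is named by those genes. At 14 days 1 of these cells held only 1 UMI each of Cdh8 and Foxp2. Of the markers that set the types, 4 of 5 for Nefh and 3 of 4 for Sst were highest in their own type. Ntrk3, of the Nefh list, was higher in C-LTMR (413.5 against 241 CPM), and Nts, of the Sst list, in Nefh (1212 against 668.6 CPM). All markers of the other types were highest in their own. The mix of types differed between libraries: C-LTMR cells made up 24.8% of naïve neurons, 5.03% at 7 days and 9.66% at 14 days, and Tac1 cells 20.2%, 7.04% and 26.9%. Sst cells made up 5.43%, 2.01% and 11.7%. Mrgprd cells made up 30.2%, 35.7% and 18.6%, and no type was given to 10.1%, 46.2% and 20.7%. The 7-day shares include the 142 shallow neurons of that library. Among neurons of at least 10000 UMIs (108, 57 and 120), Tac1 cells numbered 21, 14 and 33. Of these neurons, Sst cells numbered 7, 4 and 16, C-LTMR cells 30, 9 and 14, and Mrgprd cells 36, 16 and 24.

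Oprm1 was highest in Tac1, Sst and Cdh8/Foxp2 neurons. In Tac1 neurons it stood at 15.6 CPM (9.09 to 24.98) in the naïve library, 22.5 CPM (15.1 to 32.4) at 7 days and 18.5 CPM (14.0 to 24.1) at 14 days, and in Sst neurons at 19.0, 28.1 and 20.9 CPM. The intervals of both types overlap in each library. Over all libraries the level in Tac1 neurons was 3.99-fold that of the other neurons (3.01 to 5.28), and that in Sst neurons 3.62-fold (2.62 to 4.94). Mrgprd neurons stood at 1.86 CPM, from 19 UMIs in 137 cells. C-LTMR neurons had no Oprm1 UMI in 56 cells, which allows a level of up to 0.610 CPM and a share of up to 5.36% of cells. With types called by clustering, 1 UMI fell in a naïve C-LTMR neuron. The 13 Cdh8/Foxp2 neurons had 14 UMIs of Oprm1, or 18.8 CPM, 8 of them in the 4 naïve cells (43.9 CPM).

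Oprd1 was close to the limit of detection. It gave 2, 2 and 4 UMIs in the naïve, 7-day and 14-day libraries, each in a cell of its own. All 8 of these cells were Mrgprd neurons, which held 36.8% of all neuron UMIs. The level in Mrgprd neurons was 0.784 CPM (0.338 to 1.54), at least 4.59-fold that of the other neurons, where 3 UMIs would correspond to 0.171 CPM. These 8 cells had 126182 to 279972 UMIs each, all above the median depth of the neurons of their library.

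Oprk1 was found in few Tac1 neurons at a high level per cell. Over all libraries 56 of its 58 neuronal UMIs lay in 7 Tac1 neurons and the other 2 in 1 Nefh neuron. The naïve library had 5 UMIs in 1 cell, the 7-day library 1 UMI in 1 cell and the 14-day library 52 UMIs in 6 cells. The deepest count was 23 UMIs in 1 cell at 14 days, or 140 CPM of that cell, and the 6 cells ranged from 29.1 to 140 CPM. In all, 7 of the 8 cells with Oprk1 also had an Oprm1 UMI. In Tac1 neurons the 14-day level was 16.5 CPM against 4.59 CPM in the naïve library, a log2 ratio of 1.85 (0.53 to 3.53). That interval treats the UMIs of 1 cell as independent, and the comparison rests on 5 cells against 1.

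Oprl1 was counted across most neuron types. Over all libraries it stood at 20.1 CPM in the 13 Cdh8/Foxp2 neurons, 17.0 CPM in Tac1, 12.9 CPM in Nefh, 12.3 CPM in Mrgprd and 11.8 CPM in C-LTMR neurons, and the intervals of these 5 groups overlap. Sst neurons, high in Oprm1, were the exception, with 1 Oprl1 UMI in 28 cells (0.381 CPM, 0.00966 to 2.13) against 12.8 CPM in the other neurons. The Tac1 level was 1.66-fold that of all other neurons (1.29 to 2.12). With types called by clustering, Tac1 neurons stood at 21.3 CPM (17.55 to 25.61). That lay above Mrgprd neurons at 12.95 CPM (10.79 to 15.41) and C-LTMR neurons at 12.24 CPM (9.317 to 15.79). Single Mrgprd neurons carried much of the signal: 56 of the 63 UMIs of that type at 7 days and 26 of 43 in the naïve library came from 1 cell each. The level of Oprl1 in all neurons was 12.9, 15.7 and 8.59 CPM. Against naïve neurons the log2 ratio was 0.28 (−0.12 to 0.68) at 7 days and −0.59 (−0.98 to −0.19) at 14 days. Without the neuron of most Oprl1 UMIs in each library the 7-day value was −0.43. The 14-day log2 ratio was −1.05 (−1.89 to −0.25) in Mrgprd neurons, but −0.28 (−1.44 to 0.85) without the cell of most UMIs in each library. It was −0.18 (−0.96 to 0.65) in Tac1 and −0.47 (−1.46 to 0.45) in C-LTMR neurons. In Cdh8/Foxp2 neurons, with 10, 2 and 3 UMIs in 4, 4 and 5 cells, it was −2.70 (−5.93 to −0.47) at 7 days and −2.58 (−5.08 to −0.62) at 14 days. Whether these gated cells were of a single type across the libraries was not tested.

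**Figure D2:**
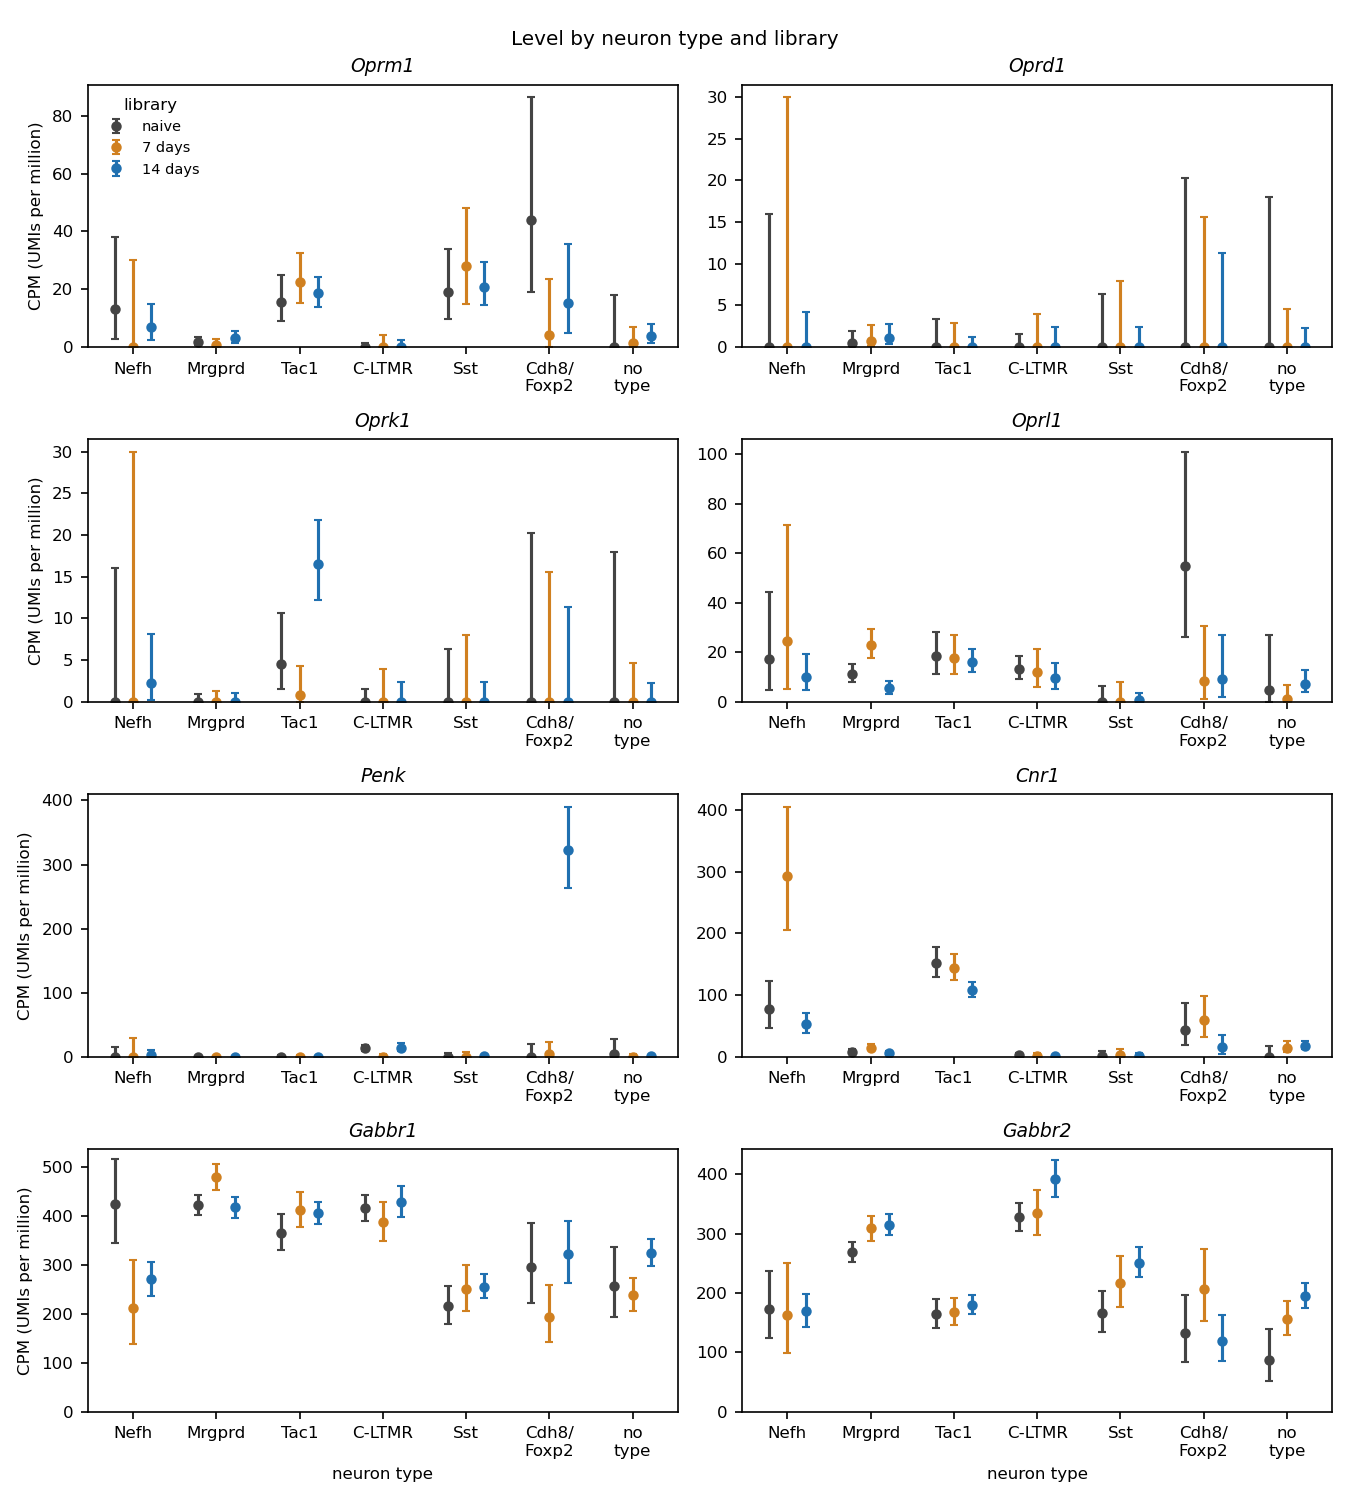
Level (CPM, linear axis from 0) of each gene by neuron type and library, with exact Poisson 95% intervals; wide intervals mark types with few cells (Nefh and Sst at 7 days have 4 cells each). Oprm1 is at 0 in C-LTMR neurons and highest in Tac1, Sst and Cdh8/Foxp2 neurons, Cnr1 is highest in Tac1 and Nefh neurons, and Gabbr1 and Gabbr2 are present in every type.

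Penk, the only ligand gene among the members, was carried by few neurons in each library. The naïve library had 33 UMIs in 5 cells, the 7-day library 1 UMI and the 14-day library 133 UMIs in 12 cells. Of the 33 naïve UMIs, 29 came from 1 C-LTMR neuron, and of the 133 at 14 days, 84 came from 1 Cdh8/Foxp2 neuron with 1044 CPM. C-LTMR neurons stood at 13.2 CPM in the naïve library and 14.0 CPM at 14 days, with 0 UMIs in 10 cells at 7 days. At 14 days, 105 of the 133 UMIs lay in 3 of the 5 Cdh8/Foxp2 neurons. These held 84, 17 and 4 UMIs of Penk. The cells with 84 and 4 also held 53 and 64 UMIs of Atf3, a gene induced by axon injury, and no UMI of Trpm8. The cell with 17 held 6 UMIs of Trpm8 and 1 of Atf3. When neurons were clustered instead of gated, 96 Penk UMIs lay in neurons of no named type. No Penk UMI was found in 137 Mrgprd neurons (limit 0.294 CPM).

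Outside neurons, Penk was a fibroblast gene at low counts. Fibroblasts had 7, 4 and 13 UMIs in 3 of 87, 3 of 75 and 8 of 176 cells, or 24.8 CPM (9.96 to 51.0), 13.4 CPM (3.65 to 34.3) and 16.7 CPM (8.91 to 28.6). The intervals overlap, so no difference between libraries was detectable. Neurons of at least 10000 UMIs stood lower, at 3.79, 0.160 and 10.6 CPM of Penk in the naïve, 7-day and 14-day libraries. At 14 days that level lay within the fibroblast interval. Satellite glia had 0 UMIs of Penk in each library, which allows up to 0.608, 0.715 and 0.528 CPM.

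Cnr1 was highest in the Tac1 and Nefh types. In Tac1 neurons it stood at 152 CPM (130.0 to 177) in the naïve library, 144 CPM (124 to 166) at 7 days and 109 CPM (97.4 to 121) at 14 days, the last below the other two. Tac1 neurons held 71.2% of all neuronal Cnr1 UMIs from 19.5% of all neuron UMIs, a level 10.2-fold that of the other neurons (8.89 to 11.8). Nefh neurons stood at 78.1, 293 and 53.3 CPM. The 7-day value rests on 4 cells, with 24 of its 36 UMIs in 1 of them, and at 14 days 31 of 47 UMIs came from 1 cell. The few Cdh8/Foxp2 neurons had 8, 14 and 5 UMIs, or 43.9, 59.1 and 15.3 CPM. C-LTMR and Sst neurons were low, at 1.63 and 1.91 CPM over all libraries. Sst neurons thus had Oprm1 with little Oprl1 or Cnr1, and C-LTMR neurons had Oprl1 with no Oprm1 UMI and little Cnr1.

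Over all neurons, Cnr1 stood at 27.1 CPM in the naïve library, 44.0 CPM at 7 days and 34.3 CPM at 14 days, a log2 ratio of 0.70 (0.44 to 0.95) and 0.34 (0.10 to 0.57). The direction within Tac1 neurons was another at 14 days. There the log2 ratio was −0.49 (−0.76 to −0.21), and at 7 days it was −0.08 (−0.39 to 0.23), or 0.24 (−0.07 to 0.55) with types called by clustering. With the Nefh, Mrgprd, Tac1, C-LTMR and Sst types weighted as in the naïve library, the log2 ratios became 0.35 and −0.52. This weighting left out the Cdh8/Foxp2 neurons and those of no type. Neurons of no type held 2.41%, 12.2% and 12.9% of neuron UMIs in the naïve, 7-day and 14-day libraries. The weighting thus changed the cells used as well as the mix of types. With each neuron weighed alike by its own CPM, the 7-day value was −0.21. The share of neuron UMIs that came from Tac1 cells was 12.8%, 19.6% and 23.8% in the same order. Thinned to 5000 UMIs, Cnr1 was present in 12.1%, 17.6% and 14.6% of neurons, against 34.9%, 21.1% and 43.5% without thinning. In satellite glia 0.143%, 0.832% and 0.439% of cells had a Cnr1 UMI. Non-myelinating Schwann cells had 0, 2 and 9 Cnr1 UMIs, and 7 of the 9 came from 1 cell of 177.

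Both GABA-B receptor genes were found in nearly all deep neurons at a level that barely differed between libraries. Gabbr1 stood at 393 CPM (380 to 406) in the naïve library, 393 CPM (378 to 408) at 7 days and 372 CPM (361 to 382) at 14 days. Gabbr2 stood at 255 CPM (244 to 266), 253 CPM (241 to 265) and 254 CPM (245 to 263). Against naïve neurons, Gabbr2 had a log2 ratio of −0.01 (−0.10 to 0.08) at 7 days and −0.01 (−0.09 to 0.07) at 14 days, and Gabbr1 had −0.00 (−0.08 to 0.07) and −0.08 (−0.14 to −0.02). With neuron types weighted as in the naïve library the values of Gabbr2 were 0.13 and 0.25, and those of Gabbr1 were 0.074 and 0.021. That weighting left out the Cdh8/Foxp2 neurons and those of no type. Of the 285 neurons of at least 10000 UMIs, 280 had both genes, 3 had only Gabbr1, none had only Gabbr2 and 2 had neither.

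Across neuron types the GABA-B genes varied less than the other members, but not in parallel. Gabbr1 was lowest in Sst neurons at 246 CPM (228 to 266) and stood at 436, 415 and 399 CPM in Mrgprd, C-LTMR and Tac1 neurons. Gabbr2 was highest in C-LTMR neurons at 349 CPM (333 to 366), followed by Mrgprd at 296 CPM and Sst at 226 CPM, and Tac1 neurons stood at 174 CPM (163 to 185). The Tac1 level of Gabbr2 was 0.612-fold, 0.610-fold and 0.650-fold that of the other neurons in the naïve, 7-day and 14-day libraries. The C-LTMR level was 1.45-fold, 1.40-fold and 1.67-fold. Each of these 6 intervals lies on 1 side of equality. Within 3 types the 14-day level of Gabbr2 was higher than the naïve level. The log2 ratio was 0.23 (0.11 to 0.35) in Mrgprd, 0.26 (0.10 to 0.41) in C-LTMR and 0.60 (0.27 to 0.93) in Sst neurons, against 0.13 (−0.12 to 0.38) in Tac1 and −0.04 (−0.55 to 0.50) in Nefh neurons. Clustering in place of gates kept these 3 intervals above 0. In Nefh neurons Gabbr1 had a 14-day log2 ratio of −0.65 (−0.996 to −0.297) with 13 cells against 8, but −0.05 (−0.34 to 0.25) with types called by clustering. At 7 days the gated value was −1.01 (−1.69 to −0.37), with 4 cells against 8. With types called by clustering it was −0.76 (−1.335 to −0.217), with 5 cells against 10.

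Outside neurons, Gabbr1 was present without a matching level of Gabbr2. Satellite glia had 144 CPM (134 to 155) of Gabbr1 in the naïve library, 131 CPM (121 to 143) at 7 days and 136 CPM (127 to 146) at 14 days, and 2.03, 2.38 and 4.40 CPM of Gabbr2. In satellite glia Gabbr1 was 3.36-fold, 3.19-fold and 3.64-fold higher than in myelinating Schwann cells, which stood at 42.8, 41.2 and 37.5 CPM. Non-myelinating Schwann cells stood at 89.9, 113 and 78.3 CPM, endothelial cells at 58.1, 67.3 and 67.7 CPM, and macrophages at 25.2, 26.6 and 27.6 CPM. For each 100 UMIs of Gabbr1, neurons had 64.9, 64.4 and 68.2 UMIs of Gabbr2, and satellite glia had 1.41 (0.673 to 2.61), 1.82 (0.865 to 3.36) and 3.23 (2.08 to 4.81). Satellite glia with a UMI made up 53.6%, 59.0% and 60.03% of cells for Gabbr1, and 1.43%, 2.08% and 3.66% for Gabbr2. After thinning to 2000 UMIs the shares were 23.4%, 22.1% and 22.5% for Gabbr1, and 0.484%, 0.532% and 0.788% for Gabbr2. The Gabbr1 level of satellite glia did not differ detectably between libraries, with log2 ratios of −0.13 (−0.30 to 0.03) at 7 days and −0.08 (−0.23 to 0.07) at 14 days over the naïve library.

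**Figure D3:**
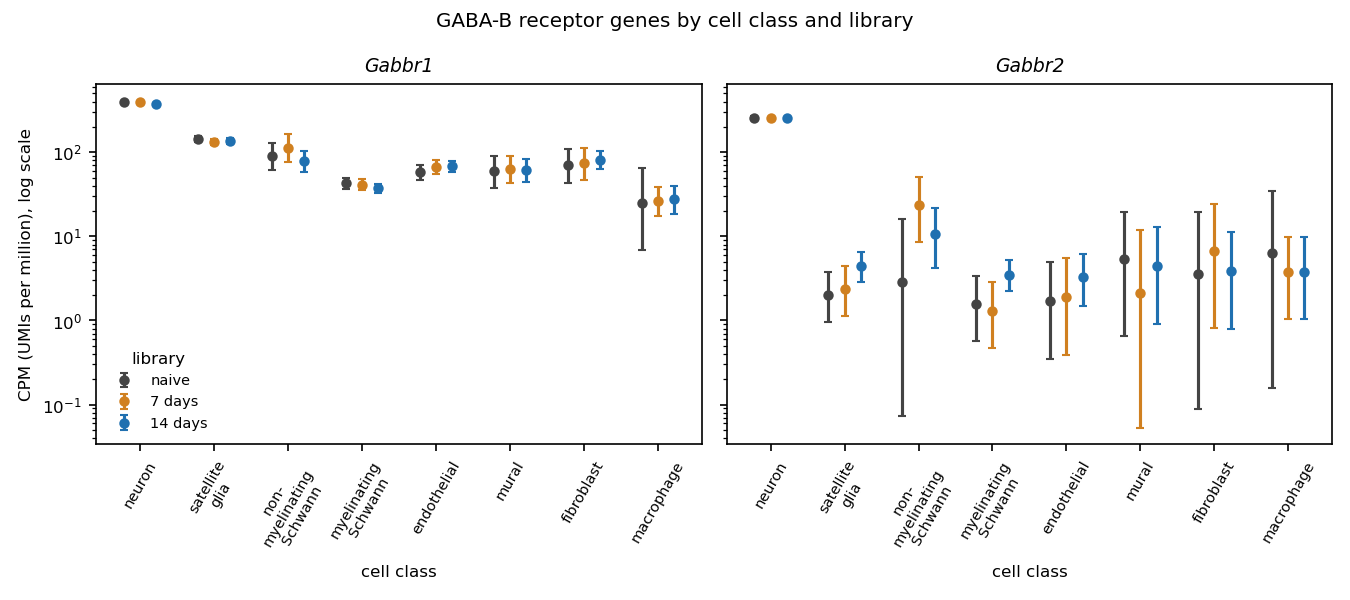
Level (CPM, log scale) of Gabbr1 and Gabbr2 in 8 cell classes by library, with exact Poisson 95% intervals. Gabbr1 stands at 372 to 393 CPM in neurons and 131 to 144 CPM in satellite glia, whereas Gabbr2 stands at 253 to 255 CPM and 2.03 to 4.40 CPM.

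The comparison of injured with naïve neurons asked whether these genes changed after nerve injury. Of the 6 members with at least 20 UMIs in the 7-day and naïve neurons together, 0 were at least 2-fold higher and 1 (Penk) was at least 2-fold lower, against 4.09% and 1.83% of the 12590 genes counted that often. At 14 days 2 of 7 members (Oprk1 and Penk) were at least 2-fold higher and 0 lower, against 6.88% and 1.45% of 13271 genes. The median log2 ratio was 0.14 over the members and 0.03 over all genes at 7 days, and 0.34 over the members and 0.09 over all genes at 14 days. Penk at 7 days and Oprk1 at 14 days reached 20 UMIs through 1 of the libraries compared, so each could be called in 1 direction only, and the counts describe the members. The other 5 members tested at 7 days and Oprm1, Oprl1, Cnr1, Gabbr1 and Gabbr2 at 14 days stayed within 2-fold. Both comparisons share the naïve library. The 14-day values of Oprk1 and Penk, at log2 ratios of 2.80 (1.49 to 4.49) and 1.44 (0.88 to 2.03), rest on 6 and 12 cells. Without the 13 Cdh8/Foxp2 neurons the 14-day value of Penk was −0.81, and without the neuron of most Penk UMIs in each library it was 3.04.

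Oprm1 was higher in neurons at 14 days than in the naïve library by a log2 ratio of 0.80 (0.30 to 1.33), and at 7 days the interval of the ratio included 0, at 0.41 (−0.22 to 1.03). Within Tac1 neurons the values were 0.25 (−0.56 to 1.12) at 14 days and 0.53 (−0.38 to 1.49) at 7 days, and within Sst neurons 0.13 (−0.89 to 1.27) and 0.56 (−0.71 to 1.86). These 4 intervals include 0. With types weighted as in the naïve library, Cdh8/Foxp2 neurons and those of no type left out, the 14-day log2 ratio of Oprm1 was 0.29. When each neuron was weighed alike by its own CPM, shallow neurons included, it was −0.28. The shares of Tac1 and Sst neurons differed between the libraries as given above. Satellite glia markers, all 5 of which were detected, summed to 298, 509 and 440 CPM in neurons of the naïve, 7-day and 14-day libraries. In the same order, 69, 88 and 103 neurons reached the marker limit of a glial class. Leaving aside the non-myelinating Schwann list, only 1, 6 and 3 neurons reached the limit of another class. Neurons also carried genes of that list, such as L1cam at 402, 431 and 434 CPM. The 6 genes of the list summed to 1376, 1453 and 1682 CPM in neurons, in the same order. In the 60, 111 and 42 neurons that reached no limit of any other class, the non-myelinating Schwann list included, the 14-day log2 ratio of Oprm1 was 0.17. These neurons may differ from the others in type and injury state as well, which was not tested. The part of glial RNA in this and the other differences between libraries was not tested. In the few Cdh8/Foxp2 neurons Oprm1 had 8, 1 and 5 UMIs, with a log2 ratio of −3.38 (−8.85 to −0.48) at 7 days and −1.52 (−3.48 to 0.28) at 14 days. Among the 7-day cells, 2 held 101 and 138 UMIs of Atf3, against 0 in each naïve cell. Whether the gated cells of the 3 libraries were of a single type was not tested.

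**Figure D4:**
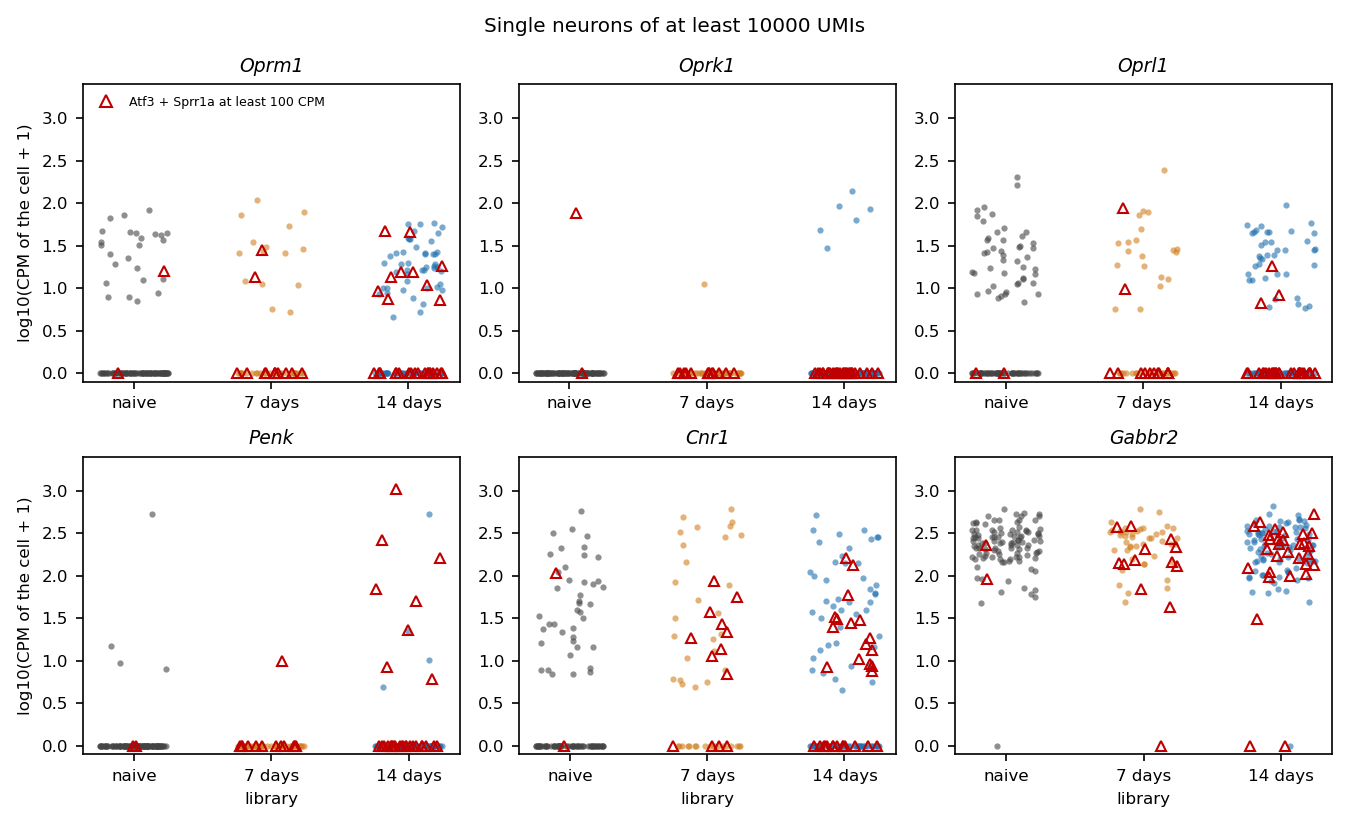
Each point is 1 neuron of at least 10000 UMIs (108 naïve, 57 at 7 days, 120 at 14 days), plotted as log10 of its CPM plus 1; red triangles mark neurons with Atf3 and Sprr1a together at 100 CPM or more. Oprk1 and Penk are at 0 in nearly all neurons with a few high cells, and Gabbr2 forms a single band near the same height in the 3 libraries.

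A spared nerve injury cuts the axons of some neurons of a ganglion and leaves others whole. Atf3 and Sprr1a, which neurons induce when their axon is cut, were used to part the neurons of at least 10000 UMIs within each library. Together they reached 100 CPM in 2 of 108 naïve neurons, 13 of 57 at 7 days and 30 of 120 at 14 days, and 5, 2 and 3 neurons lay between 50 and 200 CPM. This limit was set after the values had been seen. Of the 43 such neurons of the injured libraries, 19 had no type by the markers, 8 were Tac1 neurons and 1 was a Mrgprd neuron.

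Oprl1, Cnr1, Gabbr1 and Gabbr2 were lower in the neurons with these injury genes than in the others of the same library, by unequal amounts. Oprl1 stood at 1.71 CPM against 19.7 CPM at 7 days and at 1.62 CPM against 10.7 CPM at 14 days, log2 ratios of −3.53 (−6.59 to −1.64) and −2.73 (−4.38 to −1.46). Of the 100 UMIs in the other 7-day neurons, 56 came from 1 cell, without which their level was 9.08 CPM and the log2 ratio −2.41 (−5.50 to −0.47). Cnr1 stood at 18.0 against 51.4 CPM and at 18.2 against 39.5 CPM, log2 ratios of −1.52 (−2.23 to −0.88) and −1.12 (−1.55 to −0.71). Gabbr1 differed by −0.69 (−0.86 to −0.52) and −0.47 (−0.57 to −0.36). Gabbr2 differed by −0.82 (−1.05 to −0.60) at 7 days and by −0.17 (−0.29 to −0.05) at 14 days, and these intervals do not overlap. For Oprm1 both intervals include 0, at −1.27 (−3.21 to 0.19) and −0.65 (−1.43 to 0.05).

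Penk went the other way at 14 days. It was found in 8 of the 30 neurons with the injury genes and in 4 of the other 90, at 36.6 CPM against 2.10 CPM. Of the 113 UMIs in the 8 cells, 84 came from the 1 cell named above. At 7 days 1 of 13 neurons with the injury genes had a Penk UMI and 0 of 44 without them. Oprk1 had 0 UMIs in the 43 neurons with the injury genes and 53 UMIs in the 134 without, whereas the 1 naïve cell with Oprk1 was among the 2 naïve neurons past the limit. The neurons with and without these genes differ in type as well, and the part of type in these differences was not tested.

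**Figure D5:**
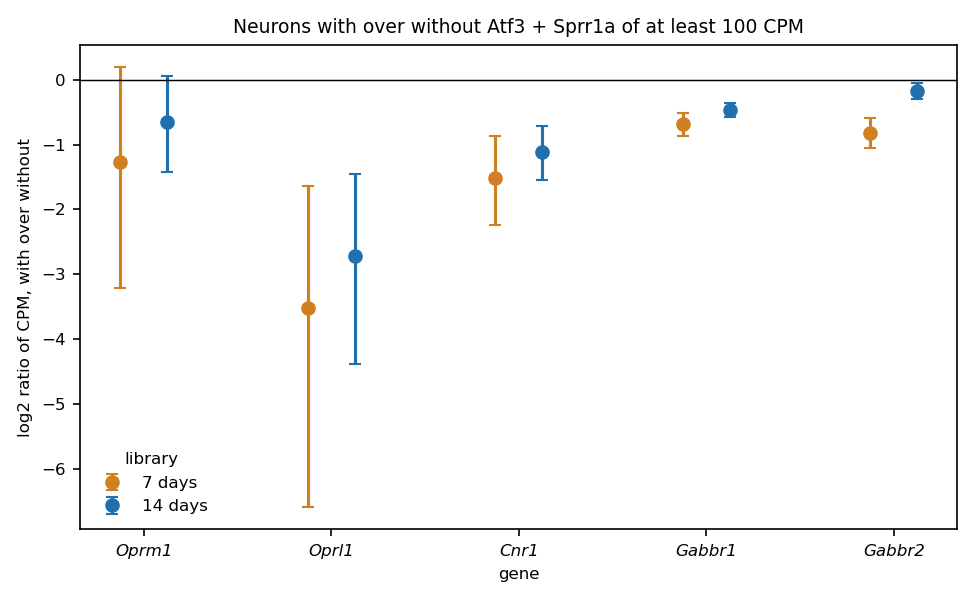
Log2 ratio of CPM in neurons of at least 10000 UMIs with Atf3 and Sprr1a at 100 CPM or more over the other such neurons of the same library, with exact conditional binomial 95% intervals, at 7 days (13 against 44 neurons) and 14 days (30 against 90). The points shown lie below 0 (Penk, which lay above 0 at 14 days, Oprk1 and Oprd1 are not plotted), Oprl1 lowest at −3.53 and −2.73, and only the intervals of Oprm1 reach 0.

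In single neurons of at least 10000 UMIs, no UMI of the 4 opioid receptor genes was found in 42 of 108 naïve neurons, 27 of 57 at 7 days and 41 of 120 at 14 days. At least 2 of these genes were found together in 10, 12 and 28 neurons. Oprm1 and Oprl1 were found together in 39 of 285 neurons, Oprm1 alone of this pair in 61 and Oprl1 alone in 72. Oprm1 and Cnr1 were found together in 68 neurons, and Oprm1 without Cnr1 in 32. Penk and Oprm1 were found in the same neuron in 4 cases, all at 14 days. At these levels a missing UMI does not show that a neuron lacked the transcript.

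The genes around these receptors were taken from a list of 41 that make or break down the ligands, carry the signal or end it. Of 28 with at least 20 UMIs at 7 days, 1 was at least 2-fold higher in neurons than in the naïve library and 0 were lower, and of 31 at 14 days again 1 was higher and 0 lower, against 4.09% higher and 1.83% lower of all genes at 7 days and 6.88% and 1.45% at 14 days. The higher gene was Mme (neprilysin, which cleaves enkephalins) at 7 days, with 13, 22 and 31 UMIs in the naïve, 7-day and 14-day neurons, and Kctd12 (an auxiliary GABA-B subunit) at 14 days, with 8, 4 and 28 UMIs. Kctd12 reached 20 UMIs through the 14-day library only. These and the other genes of the list below were picked after their values had been seen, and both were far higher in another class. Mme reached 240 CPM in myelinating Schwann cells of the naïve library, and Kctd12 371 CPM in macrophages.

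Of the genes of the list with at least 20 UMIs, 12 of 31, 11 of 31 and 13 of 33 were at least 2-fold higher in neurons than in all other classes in the naïve, 7-day and 14-day libraries, against 21.7%, 20.6% and 21.8% of all genes. Lower in neurons by that fold were 8, 10 and 7, against 33.9%, 34.2% and 32.9% of all genes. Among the G protein subunits, Gnao1 was highest in neurons at 930, 984 and 964 CPM in the 3 libraries. The GIRK channel gene Kcnj3, an effector of these receptors, stood at 20.8, 20.6 and 22.9 CPM, and Kcnj5 at 0 UMIs. The auxiliary GABA-B subunit gene Kctd8 stood at 92.1, 95.6 and 98.5 CPM. Among genes that end the signal, Rgs4, a GTPase-activating protein of Gi/o subunits, stood at 2270, 1754 and 1496 CPM, and Grk2, a receptor kinase, at 260, 216 and 185 CPM. Arrb1, of the same set, was higher in the injured libraries, at 182, 230 and 218 CPM. For the ligands, Pcsk1 and Pcsk2, which cut prohormones such as proenkephalin, were highest in neurons, at 11.9 and 179 CPM in the naïve library, and Pdyn and Pnoc had 3 and 1 UMIs in all neurons. Cnr2, the CB2 receptor gene, had no UMI in neurons and stood at 6.29, 3.80 and 5.72 CPM in macrophages.

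The genes most like each member were sought over 25 sums of UMIs (9 cell classes in up to 3 libraries), by Pearson's r of log2(CPM + 1). For Oprm1 they were Tnr (r = 0.991), Pou4f3 (0.987) and Gm20387 (0.981), and for Oprl1 Ppef1 (0.966), Mmp25 (0.963) and Mab21l1 (0.961). For Cnr1 they were Ano4 (0.943), Mymk (0.940) and Calca (0.939), the gene of the peptide CGRP. Gabbr2 was most like Disp2 (0.959), Scn11a (0.954) and Ndrg4 (0.953), and Gabbr1 most like 2900097C17Rik (0.923), Ncdn (0.920) and Ywhaz (0.914). Penk, shared by neurons and fibroblasts, was less closely followed, by Prrx2, Kl and Ror2 at 0.892 each. The sums share libraries and differ in depth, and the values describe them only.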

How the data were processed

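Cells of L3 and L4 DRGs were sequenced with 10x 3′ chemistry in 1 library per condition. The deposited values are raw UMI counts from the authors, for which the submitters' processing notes name Cell Ranger 3.0.2 and mm10. Barcodes needed 500 genes or more and no more than 20% mitochondrial UMIs, and the 29, 32 and 29 cells called by Scrublet (scanpy 1.11.5) were left out. A cell took the class (of 11) of which the highest share, at least 50%, of listed markers lay above the mean over cells of its library. Neuron types were called likewise, but against the mean over the neurons of all 3 libraries together. This rule, the split at 10000 UMIs and the Atf3 and Sprr1a limit were set after values had been seen. CPM is a gene's UMIs per 1000000 UMIs of the cells summed. Intervals are exact Poisson (CPM), Clopper-Pearson (shares) and conditional binomial (ratios), from scipy 1.17.1, and miss the spread between cells and mice. For a count of 0, the limit is set by 3 counts. The genes named were the members, any list gene past 2-fold in both injured libraries (none qualified) and the 3 most similar genes per member of at least 100 UMIs. Other list genes were named after their values had been seen. The members and lists were chosen with earlier results of these data known. Of 31053 gene IDs, 30934 matched GENCODE vM21. Alternatives changed the cell filter, class and type calls, scaling, weighting of cells and types, UMI minimum and injury-gene limit. The calculations were tested on simulated data. A marker level in shallow neurons is not reported here.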

Additional observations from a re-analysis of the deposited data

Results flagged for a closer look

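Penk in neurons lay in opposite directions in the injured libraries, with a log2 ratio over the naïve library of −4.67 at 7 days and 1.44 at 14 days and both intervals on 1 side of 0. With 1 library per condition the difference between the time points was not tested. The values rest on 1 UMI at 7 days and on 12 cells at 14 days, and 29 of the 33 naïve UMIs came from 1 cell. Without that cell the 7-day value was −1.63 (−7.26 to 1.70), which includes 0.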

How the results depend on the processing

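No paired analysis was possible because there was a single library per group, with no replicate to match. Of the alternatives to the log2 ratios of neurons over naïve neurons, 134 stayed within the counting interval, 24 moved beyond it and 8 reversed. Reversed is used where the interval of the main value excludes 0 and the alternative has the other sign, whatever the interval of the alternative. In all, 22 of the 166 alternatives changed sign. The cause was not tested unless given. With the mean of single-cell CPM, which gives the many shallow 7-day neurons equal weight, Oprm1 was −1.84 at 7 days and −0.28 at 14 days (reversed), Oprl1 −0.97 at 7 days, Penk 0.088 at 14 days, Cnr1 −0.21 (reversed) and 0.088, Gabbr1 −0.42 at 7 days and Gabbr2 −0.11 at 14 days. With neurons that passed no other class's markers (60, 111 and 42), the 7-day and 14-day values were −1.73 and 0.17 for Oprm1, 1.12 and −0.33 (reversed) for Cnr1, 0.21 and 0.054 (reversed) for Gabbr1, and 0.20 and 0.22 for Gabbr2, with Oprl1 at −1.36 at 7 days. With types weighted as in the naïve library, chosen after seeing the data, Oprm1 was 0.29 and Penk 0.14 at 14 days, and the 7-day and 14-day values were 0.35 and −0.52 (reversed) for Cnr1, 0.074 and 0.021 (reversed) for Gabbr1 and 0.13 and 0.25 for Gabbr2. This weighting also left out the Cdh8/Foxp2 neurons and those of no type. Without the neuron of most UMIs, Oprl1 was −0.43 at 7 days and Penk 3.04 at 14 days, and without the Cdh8/Foxp2 neurons, also chosen after seeing the data, Penk was −0.81 (reversed). Median-of-ratios size factors gave −0.17 for Gabbr1 and −0.10 for Gabbr2 at 14 days. With a stricter filter of 1000 genes and 10% mitochondrial UMIs (93, 59 and 110 neurons), Oprl1 was −1.05 and Penk −0.033 (reversed) at 14 days, where the neuron with 84 Penk UMIs took another class. Neurons over other classes then stood at 4.58 for Oprl1 at 7 days, −1.61 for Penk at 14 days (reversed), 1.87 and 3.86 for Cnr1 and 4.51 and 5.37 for Gabbr2 at 7 and 14 days, and 2.71, 2.59 and 2.80 for Gabbr1 in the 3 libraries. At 14 days the same measure was 2.19 for Gabbr1 with no cell filter and 5.91 for Cnr1 with clusters in place of gates. With types from clustering, Tac1 over other neurons was −0.76 for Gabbr2. With an Atf3 and Sprr1a limit of 200 CPM, chosen after seeing the data, Penk was 3.02 at 14 days. Genes at least 2-fold higher and lower numbered 515 and 231 at 7 days and 913 and 193 at 14 days, 297 and 111, and 558 and 113, with at least 50 UMIs, and 1230 and 626, and 1572 and 657, with at least 1 UMI in each library. Of the shares of cells with a UMI, 53 moved and 43 did not when cells were thinned or needed 2 UMIs. Ratios within types called by clustering, and those within a type or injury-gene group without its top cell, were also chosen after seeing the data.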
